A study of Homo sapiens with 34 samples.

Results

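ATF4 and amino acid stress genes are the 35 genes of the stress response that is run by the transcription factor ATF4, and they were taken by name. They fall into 3 groups, with 13 genes of stress signalling, 13 enzymes of serine, one-carbon and other amino acid synthesis, and 9 amino acid transporters. All 35 were among the 17587 genes listed in any of the 6 comparisons, and 33 were listed in all 6. RNA was measured by oligo-dT enriched sequencing in 34 samples of 3 human B-cell acute lymphoblastic leukemia (B-ALL) cell lines. NALM-6 carries an ETV6-PDGFRB fusion, RS4;11 an MLL-AF4 fusion and BV-173 a BCR-ABL fusion, as labelled, and values listed as 3 numbers follow that order of lines. In each line, cells transduced with a lentiviral vector that expressed 1 shRNA against *CCND3*, the gene of cyclin D3, were compared with cells that received a scrambled shRNA, both sorted for infected cells on day 4. Separate cultures of each line received 1 µM palbociclib, an inhibitor of the kinases CDK4 and CDK6, or its solvent DMSO for 3 days. Of the 12 groups, 10 held 3 samples, and 2 samples made up the *CCND3* shRNA group of NALM-6 and likewise the DMSO group of BV-173. All cells grew in RPMI medium with serum, glutamine and antibiotics.

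Cells that run short of amino acids activate the kinase GCN2, and cells with misfolded proteins in the endoplasmic reticulum activate the related kinase PERK. Both phosphorylate the initiation factor eIF2, which slows the translation of most mRNAs and favours that of *ATF4*. ATF4 protein then binds, often with a C/EBP partner, to genes for amino acid uptake and synthesis and to genes that limit the response or end in cell death. Lymphoid leukemia cells are known for their need of outside asparagine, which is the basis of treatment with asparaginase.

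The deposited values are 1 level per group and gene, in which the authors had already combined the samples of the group and scaled the 2 groups of a comparison to each other. A level therefore has no SD, its depth is unknown, and levels of different comparisons were normalized separately. Within a line, a member was counted as lower or higher when the levels of the treated and the control group differed by at least 1.5-fold, with no replicate check and no p-value. Over the lines, limma tested whether the mean log2 ratio of treated over control exceeded its spread between the 3 lines, at an adjusted p under 0.1 over all genes, and only members that passed are said to have fallen or risen.

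*CCND3* itself stood at 24.2%, 20.7% and 31.1% of the scrambled control after the knockdown, and at 76.0% to 81.8% of DMSO with palbociclib. The 7 B-lineage markers *CD79A*, *CD79B*, *CD22*, *PAX5*, *EBF1*, *VPREB1* and *DNTT* were listed in every comparison and summed to 37459 to 68722 per group. That sum was 47769 with scrambled and 68722 with *CCND3* shRNA in RS4;11, and 40682 with DMSO and 57234 with palbociclib in the same line. The 4 T-cell markers summed to at most 17.3 and the 3 erythroid markers to at most 1.22, with *HBA1* not listed. The 4 myeloid markers *LYZ*, *MPO*, *CD14* and *CSF1R* summed to 88.4 to 559.6, and their sum was 199.9 with DMSO and 557.0 with palbociclib in BV-173. There *CSF1R* was 144.7 with DMSO and 513.2 with palbociclib, whereas *MPO* was 28.8 and 14.4. *LYZ* was 25.9 and 28.8, and *CD14* was 0.581 and 0.611. The part of these marker shifts in the results on the 35 genes was not tested.

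Short elements that join a C/EBP site and an ATF site are where ATF4 usually binds, so promoter windows were searched for their core TGATGNAA on both strands. RefSeq (GRCh38.p14) windows from 250 bases before to 50 bases after the start were used for 29 members. *GPT2*, *PSPH*, *PYCR1*, *SHMT2*, *NUPR1* and *SLC7A11* had no window. The core was found in 10 of the 29 members (34.5%) and in 1217 of all 27305 genes with a window (4.46%). Some genes have several windows, and by window it was found in 12 of 50 (24%) and in 1270 of 35116 (3.62%). The members were taken by name as genes of the ATF4 response, so these shares are a description and not a test. The matches are shown because they lie in members of all 3 groups, with the core in capitals and the strand of the core printed 5′ to 3′, and the run of *SLC3A2* is shorter because its window ends there.
ATF3, chr1:212565207-212565232, plus strand: aggtcaggaTGATGGAAggctgtcat
CEBPG, chr19:33374062-33374087, plus strand: cgcggcgtcTGATGCAAcctgccggc
CHAC1, chr15:40953253-40953278, minus strand: tggcaggagTGATGCAAcggcagggg
ASNS, chr7:97872460-97872485, minus strand: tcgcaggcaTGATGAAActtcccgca
MTHFD1L, chr6:150866348-150866373, plus strand: cgccggctcTGATGCAAtcgcgccgg
SLC1A4, chr2:64989383-64989408, minus strand: ggctggagaTGATGCAAacgggagcc
SLC1A5, chr19:46784895-46784920, minus strand: ggaagtggcTGATGCAAgctgtccag
SLC38A1, chr12:46266504-46266529, minus strand: agacccgaaTGATGAAAagggatcag
SLC3A2, chr11:62881727-62881748, minus strand: ggagcTGATGTAAggagtcctg
SLC7A1, chr13:29595665-29595690, minus strand: gcgcactgcTGATGAAAcctggcgcc

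The letter N of the core was C in *CEBPG*, *CHAC1*, *MTHFD1L*, *SLC1A4* and *SLC1A5*, A in *ASNS*, *SLC38A1* and *SLC7A1*, G in *ATF3* and T in *SLC3A2*. The core began 68 bases before the start in *ASNS* and 42 bases before it in *CEBPG*. In *SLC3A2* the core is on the strand opposite to the gene, and its base nearest the start lay 37 bases after it. A match is a run of letters and not a measured binding site, and 4.46% of genes hold one in such a window.

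Palbociclib gave lower levels for most of the 35 genes in each of the 3 lines. In NALM-6, 25 of 34 listed members were lower by at least 1.5-fold and 0 were higher, where 14.9% of all listed genes were lower and 21.4% higher. In RS4;11, 28 of 33 were lower and 1 (*ASNS*) was higher, against 15% and 16.7% of all genes, and in BV-173, 28 of 35 were lower and 0 higher, against 11.9% and 13.6%. Among all genes with a mean level of at least 100, 18.2%, 16.3% and 14.3% were lower and 13.8%, 13.5% and 11.4% higher. The median member stood at 45.7%, 39.3% and 42.6% of its DMSO level, while the median log2 ratio of all genes lay between -0.01 and 0.06 in the 6 comparisons. Of the 33 members listed in all palbociclib comparisons, 21 were lower by at least 1.5-fold in all 3 lines and 0 higher, against 5.95% and 4.53% of all genes. Over the 3 lines, limma called 28 of 33 members lower and 0 higher (29 lower and 0 higher at an unadjusted p under 0.05), against 12.8% and 10.5% of all genes. The median of the members' mean log2 ratios was -1.31, and that of all genes tested was 0.04. Under the 10 other settings tried, 23 to 29 members were called lower. With 1 line left out, the lost calls were those of *CHAC1*, *STC2*, *SLC38A1* and *SLC38A2* without BV-173, of *PYCR1* without NALM-6, and of *PYCR1*, *SLC7A5*, *SLC38A1* and *SLC38A2* without RS4;11, where *ASNS* was newly called.

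**Figure D1:**
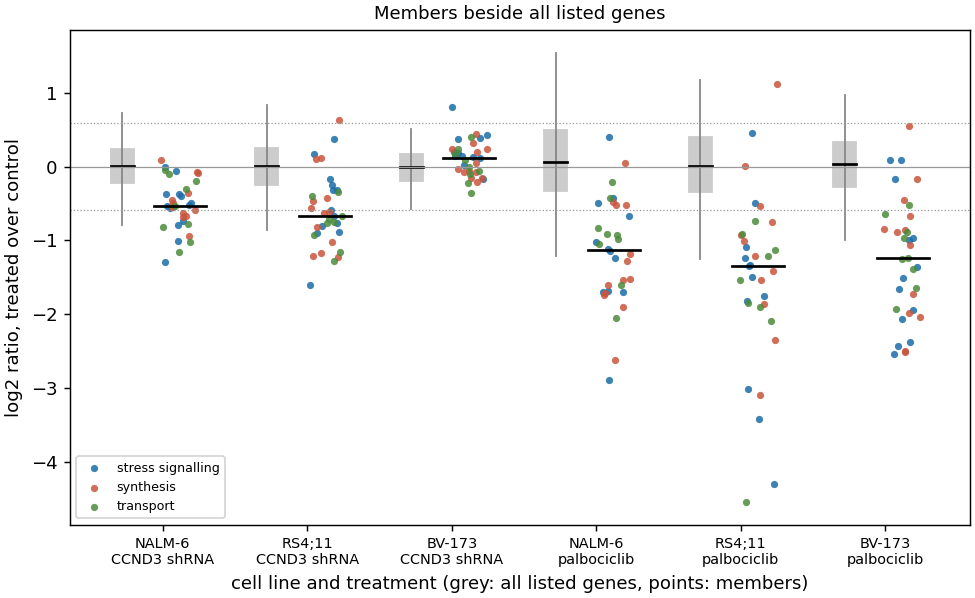
Log2 ratios (treated over control, vertical axis) of the members in each cell line and treatment. Points are members coloured by group, black bars are medians, and beside them the grey box and line span the 25th to 75th and the 5th to 95th percentile of all listed genes. Dotted lines mark 1.5-fold. The members' median lies at -1.13, -1.35 and -1.23 with palbociclib and at -0.53, -0.66 and 0.12 after the knockdown.

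*ATF4* mRNA, which lies on chr22:39520559-39522686 (GRCh38.p14), was 13924, 13877 and 17433 with DMSO and 6863, 6545 and 8763 with palbociclib. Palbociclib thus left 49.3%, 47.2% and 50.3% of the DMSO level, nearly the same share in each line, and *ATF4* fell, with a mean log2 ratio of -1.03 ± 0.13 (SE, n = 3 lines, adjusted p = 0.00923). *ATF4* in the knockdown comparisons was 12759, 13312 and 16483 with scrambled shRNA and 12720.1, 11876 and 18120.5 with *CCND3* shRNA. Those levels are 99.7%, 89.2% and 109.9% of the scrambled control, and the mean log2 ratio was -0.01 ± 0.11 (SE, n = 3 lines, adjusted p = 0.966). ATF4 activity is set largely at translation, so the mRNA level is not a measure of the protein.

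Stress signalling had 12 members listed in all palbociclib comparisons, *ATF4* itself among them. Of these, 8 were lower by at least 1.5-fold in all 3 lines, against 5.95% of all genes. By limma 10 of 12 were called lower and 0 higher, against 12.8% and 10.5% of all genes. *TRIB3*, a pseudokinase that feeds back on ATF4, was 4242, 1585 and 3412 with DMSO and 572, 449 and 629.9 with palbociclib. It fell, with a mean log2 ratio of -2.38 ± 0.21 (SE, n = 3 lines, adjusted p = 0.00675), to 13.5%, 28.4% and 18.5% of DMSO. *TRIB3* in the knockdown comparisons was 4460.1, 2803 and 2468 with scrambled shRNA and 2209, 1649 and 2512 with *CCND3* shRNA, nearly equal to control in BV-173 and lower in the other lines. *DDIT3*, which encodes the pro-apoptotic factor CHOP, was 1465, 452 and 1148 with DMSO and 449.8, 134 and 222 with palbociclib. It fell, with a mean log2 ratio of -1.94 ± 0.19 (SE, n = 3 lines, adjusted p = 0.00675). *DDIT3* in the knockdown comparisons was 1270.1, 280.1 and 537 with scrambled shRNA and 765, 224 and 703 with *CCND3* shRNA, higher than control in BV-173 and lower in the other lines.

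*CHAC1*, whose enzyme degrades glutathione, was 369, 689 and 1009 with DMSO and 232, 34.8 and 262 with palbociclib. It was lowest against control in RS4;11, where 5.05% of the DMSO level remained, and the mean log2 ratio was -2.31 ± 0.62 (SE, n = 3 lines, adjusted p = 0.0581). That call was lost without BV-173, with a pseudocount of 10 and without the trend (adjusted p = 0.140, 0.132 and 0.117). *CHAC1* in the knockdown comparisons was 903, 373 and 669.9 with scrambled shRNA and 700.1, 248 and 771 with *CCND3* shRNA. *ATF3*, a stress-induced factor of the same family as ATF4, was 364, 522 and 468 with DMSO and 154, 48.6 and 149 with palbociclib. It fell, with a mean log2 ratio of -2.11 ± 0.42 (SE, n = 3 lines, adjusted p = 0.0255), again furthest in RS4;11 with 9.31% left. *ATF3* in the knockdown comparisons was 740.3, 465 and 551 with scrambled shRNA and 502, 249 and 741 with *CCND3* shRNA, lower than control in 2 lines and higher in BV-173.

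*SESN2* encodes sestrin 2, a leucine sensor that restrains mTORC1. It was 1916, 1451 and 3167 with DMSO and 866, 570.0 and 753 with palbociclib, a fall with a mean log2 ratio of -1.52 ± 0.20 (SE, n = 3 lines, adjusted p = 0.00923). *SESN2* in the knockdown comparisons was 2828, 1156 and 2528 with scrambled shRNA and 1945, 968 and 2887 with *CCND3* shRNA, and none of these ratios reached 1.5-fold. *CEBPB* and *CEBPG* encode C/EBP factors, which can pair with ATF4. *CEBPB* was 839, 1007 and 1225 with DMSO and 260.1, 428 and 626 with palbociclib, a fall with a mean log2 ratio of -1.30 ± 0.18 (SE, n = 3 lines, adjusted p = 0.0104). For *CEBPB* after knockdown the levels were 672, 799.7 and 782 with scrambled shRNA and 469, 642 and 1014 with *CCND3* shRNA. *CEBPG* was 2231, 2090.2 and 2555 with DMSO and 1030.4, 833 and 898 with palbociclib, a fall with a mean log2 ratio of -1.32 ± 0.13 (SE, n = 3 lines, adjusted p = 0.00675). Its knockdown levels were 2637, 1964 and 1947 with scrambled shRNA and 2034, 1127 and 1734 with *CCND3* shRNA, lower than control in all 3 lines and by more than 1.5-fold in RS4;11. In these 3 genes the shares left ran from 23.8% to 51.1% of control with palbociclib and from 57.4% to 129.7% after the knockdown.

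*ATF5*, a relative of ATF4 that is also controlled at translation, fell with palbociclib at a mean log2 ratio of -1.58 ± 0.35 (SE, n = 3 lines, adjusted p = 0.0352), with 30.9%, 70.7% and 17.2% of DMSO left. *STC2*, a secreted glycoprotein, fell, with a mean log2 ratio of -1.62 ± 0.44 (SE, n = 3 lines, adjusted p = 0.0575), and it stood at 70.9%, 12.4% and 39.1% of DMSO. *VLDLR*, a lipoprotein receptor, did not pass the test at -0.61 ± 0.36 (SE, n = 3 lines, adjusted p = 0.290). Its level was 0.197 with DMSO and 0.210 with palbociclib in BV-173, against 5130.3 and 1182 with DMSO in NALM-6 and RS4;11, so 1 of the 3 lines carried next to no *VLDLR* RNA. *NUPR1*, a small stress-induced chromatin protein, was at or under 0.569 wherever it was listed and is given no ratio.

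**Figure D2:**
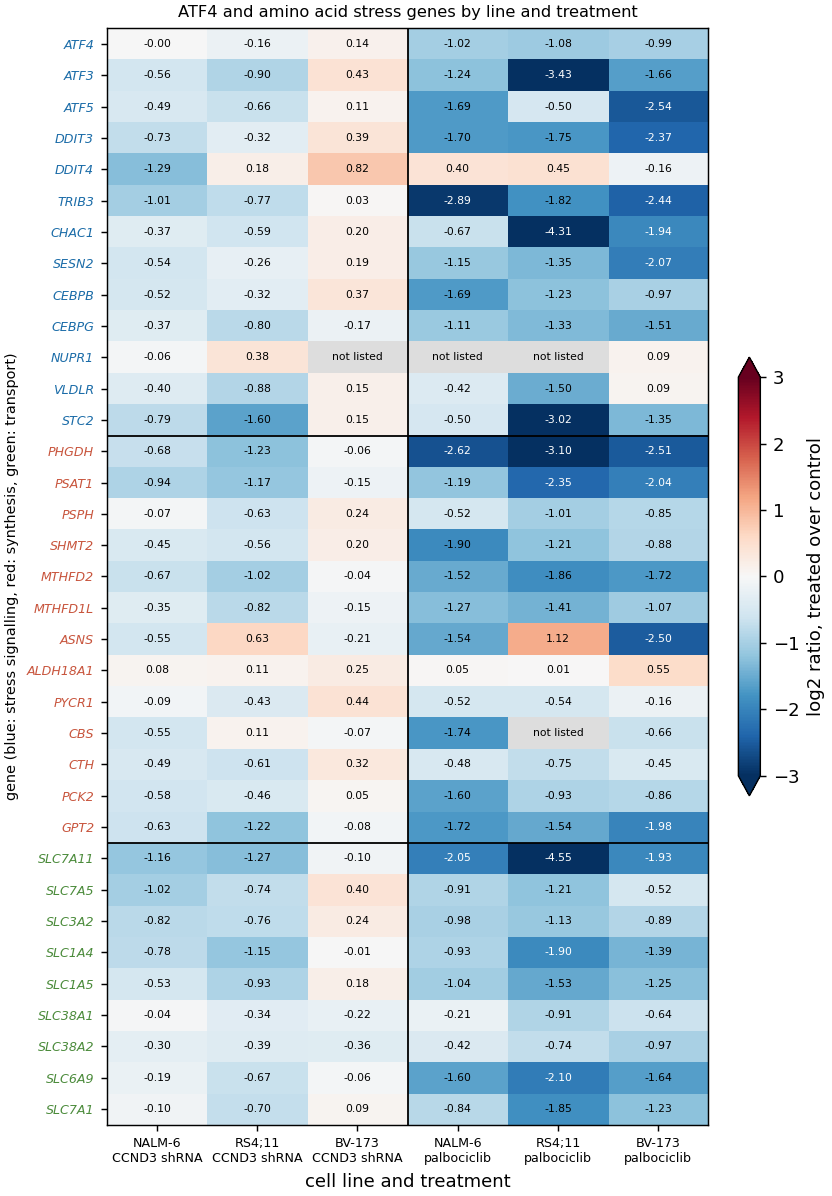
Log2 ratio (treated over control, colour and printed value) of the 35 members in rows, in 3 lines after *CCND3* shRNA on the left and 3 with palbociclib on the right. Grey cells were not listed, and the colour scale ends at 3 in either direction. *PHGDH* is at or below -2.51 in all 3 palbociclib columns, and the BV-173 knockdown column holds values from -0.36 to 0.82.

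The enzymes of the serine pathway were lower with palbociclib in every line. *PHGDH* encodes the first enzyme of serine synthesis from a glycolytic intermediate. It was 6843, 3315 and 8327 with DMSO and 1112, 387 and 1459.7 with palbociclib. It fell, with a mean log2 ratio of -2.74 ± 0.15 (SE, n = 3 lines, adjusted p = 0.00675), with 16.2%, 11.7% and 17.5% of the DMSO level left, and its log2 ratios ran from -3.10 to -2.51. *PHGDH* in the knockdown comparisons was 6097, 3718 and 8605 with scrambled shRNA and 3802, 1589.9 and 8240.1 with *CCND3* shRNA. This was a smaller fall with a mean log2 ratio of -0.66 ± 0.20 (SE, n = 3 lines, adjusted p = 0.0964), and BV-173 kept 95.8% of its control. *PSAT1*, the aminotransferase of the next step, was 4456, 3127 and 6171 with DMSO and 1959, 611 and 1499 with palbociclib. It fell, with a mean log2 ratio of -1.86 ± 0.23 (SE, n = 3 lines, adjusted p = 0.00848). *PSAT1* in the knockdown comparisons was 6773, 3333 and 5008 with scrambled shRNA and 3538, 1481 and 4522 with *CCND3* shRNA, a fall with a mean log2 ratio of -0.75 ± 0.18 (SE, n = 3 lines, adjusted p = 0.0573). *PSPH*, the phosphatase that yields serine, fell, with a mean log2 ratio of -0.79 ± 0.15 (SE, n = 3 lines, adjusted p = 0.0234) with palbociclib, and 69.9%, 49.7% and 55.4% of its DMSO level remained.

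The mitochondrial one-carbon enzymes turn serine into glycine and formate for nucleotide synthesis. *SHMT2*, which splits serine, was 11021, 8958 and 13955 with DMSO and 2955, 3886 and 7573 with palbociclib, a fall with a mean log2 ratio of -1.33 ± 0.21 (SE, n = 3 lines, adjusted p = 0.0137). *SHMT2* in the knockdown comparisons was 9492, 9715 and 12231 with scrambled shRNA and 6969, 6613 and 14069.6 with *CCND3* shRNA, higher than control in BV-173 and lower in the other lines, none by 1.5-fold. *MTHFD2*, the dehydrogenase that follows, was 12345, 7762 and 11121 with DMSO and 4297, 2140.3 and 3376 with palbociclib, a fall with a mean log2 ratio of -1.70 ± 0.13 (SE, n = 3 lines, adjusted p = 0.00675). Its knockdown levels were 11002, 7141 and 8237 with scrambled shRNA and 6901, 3511 and 8028 with *CCND3* shRNA, and the mean of -0.58 ± 0.17 (SE, n = 3 lines, adjusted p = 0.1005) missed the threshold. *MTHFD1L*, which releases formate, was 2932, 2845 and 3850.3 with DMSO and 1212, 1071 and 1838 with palbociclib, a fall with a mean log2 ratio of -1.25 ± 0.13 (SE, n = 3 lines, adjusted p = 0.00675). *MTHFD1L* in the knockdown comparisons was 2674, 2880.2 and 3949 with scrambled shRNA and 2095, 1635 and 3549 with *CCND3* shRNA, lower than control in all 3 lines. All 3 genes thus stood at 26.8% to 54.3% of DMSO with palbociclib.

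*PCK2*, the mitochondrial enzyme that makes phosphoenolpyruvate, and *GPT2*, a mitochondrial alanine aminotransferase, were also lower in all 3 lines. *PCK2* was 1679.8, 3512 and 3067 with DMSO and 554, 1841 and 1688 with palbociclib, a fall with a mean log2 ratio of -1.13 ± 0.17 (SE, n = 3 lines, adjusted p = 0.0130). *PCK2* in the knockdown comparisons was 1935, 3436 and 1834 with scrambled shRNA and 1291, 2494 and 1896 with *CCND3* shRNA. *GPT2* was 3425, 2742 and 4793 with DMSO and 1040.5, 944 and 1217 with palbociclib, a fall with a mean log2 ratio of -1.74 ± 0.13 (SE, n = 3 lines, adjusted p = 0.00675). *GPT2* in the knockdown comparisons was 3150.4, 3329.8 and 4538 with scrambled shRNA and 2042, 1433 and 4302 with *CCND3* shRNA, and it fell, with a mean log2 ratio of -0.64 ± 0.19 (SE, n = 3 lines, adjusted p = 0.0990). The share of *GPT2* left was thus 30.4%, 34.4% and 25.4% with palbociclib and 64.8%, 43.0% and 94.8% after the knockdown.

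Within the synthesis group, 7 of 12 members were lower by at least 1.5-fold in all 3 lines with palbociclib, against 5.95% of all genes. By limma, 9 of 12 were called lower and 0 higher, against 12.8% and 10.5% of all genes. *PYCR1*, the last enzyme of proline synthesis, fell least among the called genes, with a mean log2 ratio of -0.41 ± 0.13 (SE, n = 3 lines, adjusted p = 0.0888), whereas *ALDH18A1*, the first enzyme of the same pathway, gave 0.20 ± 0.15 (SE, n = 3 lines, adjusted p = 0.402) with 103.2%, 100.4% and 146.6% of DMSO. *CTH*, which makes cysteine from cystathionine, was lower in all 3 lines but gave -0.56 ± 0.22 (SE, n = 3 lines, adjusted p = 0.138). *CBS*, the enzyme before it, stood at 29.9% of DMSO in NALM-6 and 63.2% in BV-173, and it was not listed in RS4;11 with palbociclib and at 0.172 there with scrambled shRNA.

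All 9 amino acid transporters fell with palbociclib by limma, where 12.8% of all genes did. Of these 9, 6 were lower by at least 1.5-fold in all 3 lines, against 5.95% of all genes. *SLC7A11* is the cystine and glutamate exchanger xCT, which supplies cysteine for glutathione. It was 416, 628 and 979.6 with DMSO and 100.4, 26.9 and 257 with palbociclib. The mean log2 ratio of -2.84 ± 0.51 (SE, n = 3 lines, adjusted p = 0.0195) was the lowest of the 33 members tested, and 24.1%, 4.28% and 26.2% of DMSO remained. *SLC7A11* in the knockdown comparisons was 596, 544 and 949 with scrambled shRNA and 268, 225 and 883 with *CCND3* shRNA, a fall with a mean log2 ratio of -0.84 ± 0.23 (SE, n = 3 lines, adjusted p = 0.0749). *SLC3A2*, the heavy chain shared by SLC7A11 and SLC7A5, was 3662, 3721 and 7175 with DMSO and 1855, 1704 and 3881 with palbociclib, a fall with a mean log2 ratio of -0.998 ± 0.12 (SE, n = 3 lines, adjusted p = 0.00809). *SLC3A2* in the knockdown comparisons was 5205, 4615 and 7097 with scrambled shRNA and 2957, 2719 and 8403 with *CCND3* shRNA, higher than control in BV-173 alone. *SLC7A5*, the leucine carrier LAT1, fell, with a mean log2 ratio of -0.88 ± 0.18 (SE, n = 3 lines, adjusted p = 0.0259) with palbociclib, and stood at 53.2%, 43.3% and 69.8% of DMSO.

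*SLC1A4* and *SLC1A5* encode the neutral amino acid exchangers ASCT1 and ASCT2, of which the second takes up glutamine. *SLC1A4* was 799.8, 3772 and 3192 with DMSO and 419, 1011 and 1218 with palbociclib, a fall with a mean log2 ratio of -1.41 ± 0.20 (SE, n = 3 lines, adjusted p = 0.0107). *SLC1A4* in the knockdown comparisons was 1611, 3601 and 2295 with scrambled shRNA and 941, 1621 and 2284 with *CCND3* shRNA. *SLC1A5* was 7676, 9907 and 10464 with DMSO and 3725, 3429 and 4399 with palbociclib, a fall with a mean log2 ratio of -1.27 ± 0.14 (SE, n = 3 lines, adjusted p = 0.00745). Its knockdown levels were 8233, 9514 and 7069 with scrambled shRNA and 5688, 5007 and 7981 with *CCND3* shRNA, lower than control in every line but BV-173, and in that line *SLC1A4* was at 99.5% and *SLC1A5* at 112.9% of control. *SLC6A9*, the glycine transporter GlyT1, was 439, 344 and 838 with DMSO and 144, 80.5 and 268 with palbociclib, a fall with a mean log2 ratio of -1.78 ± 0.19 (SE, n = 3 lines, adjusted p = 0.00703). The knockdown levels of *SLC6A9* were 389.6, 377 and 425 with scrambled shRNA and 341, 237 and 406 with *CCND3* shRNA. *SLC7A1*, the arginine and lysine carrier CAT1, was 6176, 5378 and 4142 with DMSO and 3456, 1494 and 1763 with palbociclib, a fall with a mean log2 ratio of -1.31 ± 0.20 (SE, n = 3 lines, adjusted p = 0.0129). *SLC7A1* in the knockdown comparisons was 6965, 5312 and 3483 with scrambled shRNA and 6519.6, 3261 and 3711 with *CCND3* shRNA, so that only RS4;11 was past 1.5-fold there. *SLC38A1* and *SLC38A2*, the glutamine carriers SNAT1 and SNAT2, fell at mean log2 ratios of -0.59 ± 0.17 (SE, n = 3 lines, adjusted p = 0.0679) and -0.71 ± 0.15 (SE, n = 3 lines, adjusted p = 0.0294) with palbociclib.

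The *CCND3* knockdown gave different counts of lower members in the 3 lines. In NALM-6, 12 of 35 members were lower by at least 1.5-fold and 0 were higher, against 8.47% and 7.82% of all listed genes. In RS4;11, 21 of 35 were lower and 1 (*ASNS*) was higher, against 9.72% and 9.73%. In BV-173, 0 of 34 were lower and 1 (*DDIT4*) was higher, against 4.78% and 3.32%. Among all genes with a mean level of at least 100, 9.88%, 11% and 4.5% were lower and 6.49%, 8.3% and 3.33% higher. The median member stood at 69.1%, 63.2% and 108.9% of the scrambled control, and 34 of 35, 30 of 35 and 13 of 34 members were below control by any amount, against 48.8%, 49.1% and 51.1% of all genes. The SD of the log2 ratios of all genes was 0.47, 0.54 and 0.33, smallest in BV-173, and that line kept the largest share of *CCND3*, 31.1%. The part of these values in the difference between lines was not tested.

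No member was past 1.5-fold in all 3 lines after the knockdown, where 1.75% of all genes were lower and 0.584% higher. *TRIB3*, *STC2*, *PHGDH*, *PSAT1*, *MTHFD2*, *GPT2*, *SLC7A11*, *SLC7A5*, *SLC3A2* and *SLC1A4* were lower by at least 1.5-fold in both NALM-6 and RS4;11, 10 of 35 members against 5.2% of all genes. Over the 3 lines, limma called 5 of 34 members lower and 0 higher (12 lower and 0 higher at an unadjusted p under 0.05), against 6.87% and 4.42% of all genes. These were *PSAT1*, *SLC7A11*, *PHGDH* and *GPT2*, whose values are given above, and *SLC38A2* with -0.35 ± 0.10 (SE, n = 3 lines, adjusted p = 0.0760). Among the 5, *SLC38A2* had the smallest of these falls and nearly the same ratio in each line, with 81.3%, 76.1% and 77.9% of control left. These calls depend on the lines that enter, since without BV-173 limma called 21 members lower, and without NALM-6 or without RS4;11 it called 0. They also depend on the settings. With a pseudocount of 10 or without the trend limma called 0 as well, and with a minimum mean level it called more.

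Set against each other within a line, the log2 ratio was lower with palbociclib than after the knockdown for 30 of 34 members in NALM-6, 30 of 33 in RS4;11 and 33 of 34 in BV-173, against 48.6%, 51.4% and 48.9% of all genes. The 2 treatments had separate controls, and they also differed in duration, transduction and sorting, which cannot be told apart from the agents. The knockdown log2 ratio less the palbociclib log2 ratio was positive in all 3 lines for 26 of 33 members and negative in all 3 for 0, against 24.7% and 22.7% of all genes. By limma on this difference, 21 of 33 members were lower with palbociclib than after the knockdown and 0 were the other way round (27 and 0 at an unadjusted p under 0.05), against 7.16% and 4.16% of all genes. The median difference was 0.93 over the members and -0.01 over all genes. Without the trend between spread and level in the fit, only *PHGDH* and *SLC6A9*, 2 members, were called.

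The largest called difference was that of *PHGDH* at 2.09 ± 0.14 (SE, n = 3 lines, adjusted p = 0.00486), followed by *CHAC1* at 2.06 ± 0.54 (SE, n = 3 lines, adjusted p = 0.0782) and *SLC7A11* at 2.00 ± 0.40 (SE, n = 3 lines, adjusted p = 0.0385). For *ATF4* the difference was 1.02 ± 0.12 (SE, n = 3 lines, adjusted p = 0.00878), and its palbociclib ratio had an SD between lines of 0.05, the lowest of the members. *SLC6A9*, *CEBPB* and *SLC7A1* had differences of 1.47 ± 0.16 (SE, n = 3 lines, adjusted p = 0.00845), 1.14 ± 0.14 (SE, n = 3 lines, adjusted p = 0.0104) and 1.07 ± 0.14 (SE, n = 3 lines, adjusted p = 0.0112). Of the members called lower after the knockdown, *PSAT1* and *GPT2* were also called on the difference, at 1.11 ± 0.27 (SE, n = 3 lines, adjusted p = 0.0652) and 1.11 ± 0.26 (SE, n = 3 lines, adjusted p = 0.0599), and *SLC38A2* was not, at 0.36 ± 0.13 (SE, n = 3 lines, adjusted p = 0.149). *SLC3A2* and *SLC7A5*, the 2 chains of the leucine carrier, were not called on the difference, at 0.55 ± 0.19 (SE, n = 3 lines, adjusted p = 0.132) and 0.43 ± 0.20 (SE, n = 3 lines, adjusted p = 0.243). With 1 line left out, *CHAC1*, *PSAT1* and *SLC1A4* were not called without BV-173 or without RS4;11, *PSPH* without BV-173 or without NALM-6, and *PCK2* and *GPT2* without NALM-6. The called members were 8 of 12 in stress signalling, 8 of 12 in synthesis and 5 of 9 in transport, against 7.16% of all genes.

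**Figure D3:**
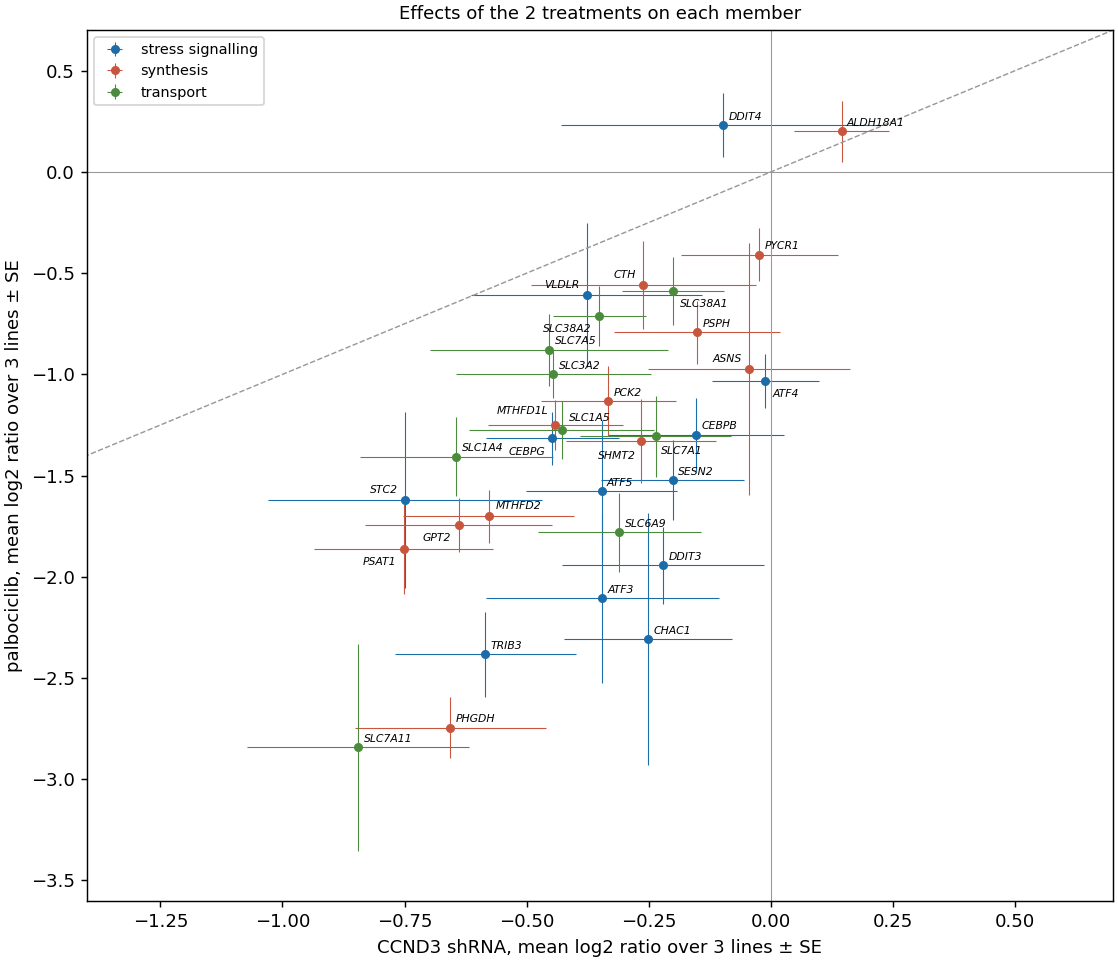
Mean log2 ratio over the 3 lines after *CCND3* shRNA (horizontal axis) and with palbociclib (vertical axis) for the 33 members listed in all comparisons. Bars are ± SE from limma (n = 3 lines) and the dashed line marks equal effects. *ATF4* lies at -0.01 and -1.03, *SLC7A11* at -0.84 and -2.84, and *DDIT4* and *ALDH18A1* are the members above 0 on the vertical axis.

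Across the members, the knockdown and palbociclib log2 ratios had a Pearson correlation of 0.308 in NALM-6 (34 genes), 0.722 in RS4;11 (33 genes) and 0.370 in BV-173 (34 genes). Genes of 1 line share its 4 groups and are not independent, so these values are a description.

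A few members did not move with the rest. *ASNS*, the asparagine synthetase, was 1827, 95.01 and 5015 with DMSO and 629, 206 and 885 with palbociclib. Palbociclib thus went with a lower level in NALM-6 and BV-173, at 34.4% and 17.7% of DMSO, and with a higher one in RS4;11, at 217.0%, where the DMSO level was the lowest of the 3 lines. The mean was -0.97 ± 0.62 (SE, n = 3 lines, adjusted p = 0.329), and without RS4;11 it was -2.02 (adjusted p = 0.000142). *ASNS* in the knockdown comparisons was 2167, 161 and 3902 with scrambled shRNA and 1482, 249 and 3369 with *CCND3* shRNA, again higher than control in RS4;11 and lower in the other 2 lines. *DDIT4*, which encodes REDD1, an mTORC1 inhibitor that other stress pathways also induce, was 11501, 3230.1 and 4208 with scrambled shRNA and 4712, 3653 and 7405 with *CCND3* shRNA. It stood at 41.0%, 113.1% and 176.0% of the scrambled control, lower in NALM-6 and higher in BV-173, with a mean of -0.10 ± 0.33 (SE, n = 3 lines, adjusted p = 0.895). *DDIT4* in the palbociclib comparisons was 2968, 2257 and 5128 with DMSO and 3914, 3094 and 4582 with palbociclib, and no line was past 1.5-fold.

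**Figure D4:**
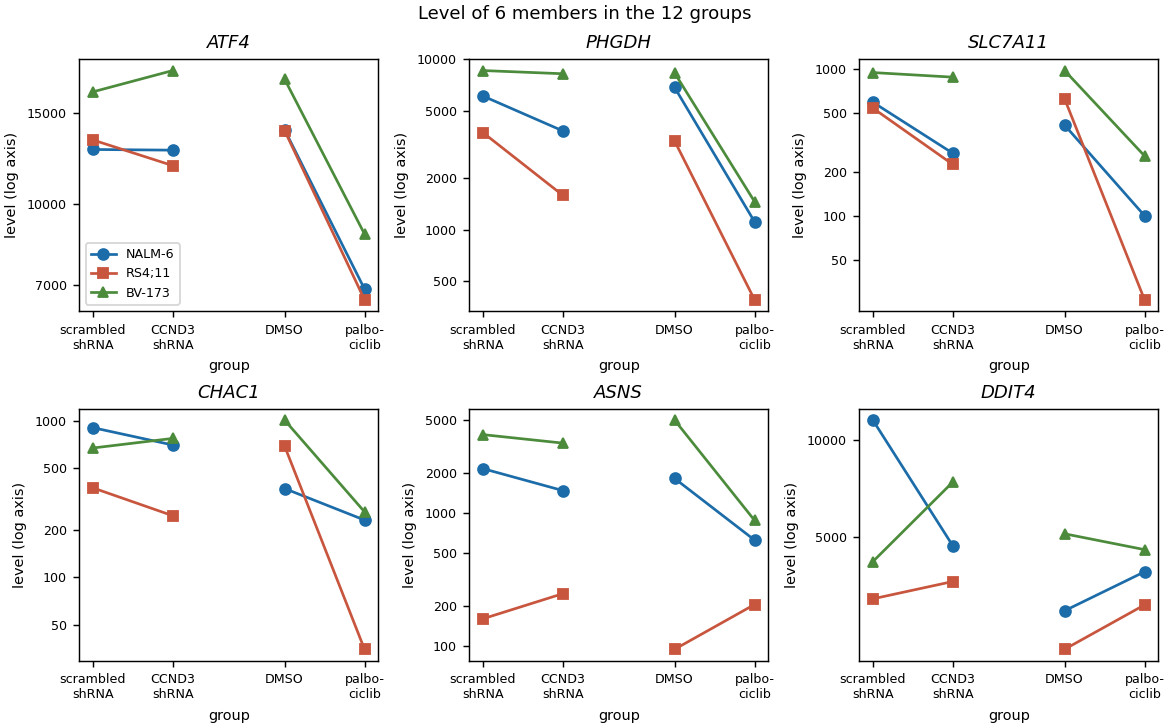
Levels (log axis, the authors' 1 value per group) of 6 members in the control and treated groups of the 3 lines, with a line joining the 2 groups of a comparison. The palbociclib comparisons show *PHGDH* between 387 and 1459.7 after treatment, *ASNS* with its lowest levels in RS4;11, and *CHAC1* at 34.8 in RS4;11.

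Per kilobase of transcript, *ATF4* was the most abundant member in the control groups of RS4;11 and BV-173, at 9099 and 11267 with scrambled shRNA and 9485 and 11916 with DMSO. In NALM-6 *ATF5* was above it, at 17231 against 8721 with scrambled shRNA and 12807 against 9517 with DMSO. *ASNS* had 78.1 and 46.1 per kilobase in the controls of RS4;11, against 886.4 to 2433 in those of the other lines. *STC2* was similarly low in RS4;11, at 21.3 and 32.2 per kilobase. These levels come from separately normalized comparisons and their spread between samples is unknown.

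Members with and without the core motif in the promoter window were both mostly lower with palbociclib. The median of the mean log2 ratio was -1.29 in the 10 members with the core, of which 9 were called lower, and -1.41 in the 18 members without it, of which 14 were called lower. Of all genes, 12.8% were called lower with palbociclib. For the knockdown the medians were -0.39 in 10 and -0.33 in 19 members.

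Other genes around ATF4 were counted in the same fits, in which 6.87% of all genes were called lower and 4.42% higher after the knockdown. With palbociclib these shares of all genes were 12.8% and 10.5%. Of 15 genes upstream of ATF4 (the eIF2 kinases, eIF2B subunits and phosphatase subunits among them), limma called 0 lower and 0 higher after the knockdown (1 and 0 at an unadjusted p under 0.05) and 2 lower and 0 higher with palbociclib. *PPP1R15B*, a subunit of the phosphatase that resets eIF2, was lower by at least 1.5-fold in all 3 lines with palbociclib at -0.82 ± 0.14 (SE, n = 3 lines, adjusted p = 0.0158). Another list held 12 genes of endoplasmic reticulum stress outside the members. After the knockdown, 1 was called lower and 0 higher (2 and 0 at an unadjusted p under 0.05). With palbociclib, 2 were called lower and 0 higher (2 and 2 at an unadjusted p under 0.05), and 2 were above DMSO in all 3 lines. *HERPUD1* and *EDEM1*, both of the pathway that degrades misfolded proteins, were the 2 called lower with palbociclib, at -0.79 ± 0.12 (SE, n = 3 lines, adjusted p = 0.0122) and -1.28 ± 0.20 (SE, n = 3 lines, adjusted p = 0.0145). The medians of these lists with palbociclib were -0.11 and -0.07, beside -1.31 for the members.

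Of 10 other folate and glycine genes, 2 were called lower and 1 higher after the knockdown, against 6.87% and 4.42% of all genes. With palbociclib, 3 were called lower and 0 higher, against 12.8% and 10.5% of all genes. The cytosolic enzymes *SHMT1* and *MTHFD1*, counterparts of *SHMT2* and *MTHFD2*, were among the lower ones with palbociclib at -1.44 ± 0.17 (SE, n = 3 lines, adjusted p = 0.00809) and -1.25 ± 0.16 (SE, n = 3 lines, adjusted p = 0.00879). A list of amino acid transporters outside the 9 members held 18 genes. For each treatment, the 15 that were listed in all 3 lines were tested, and these differed in part between the treatments. After the knockdown, 0 were called lower and 1 higher, against the same 6.87% and 4.42%. With palbociclib, 1 was called lower and 5 higher, against 12.8% and 10.5% of all genes. *SLC38A7*, a glutamine carrier of lysosomes, was higher by at least 1.5-fold in all 3 lines, at 0.97 ± 0.14 (SE, n = 3 lines, adjusted p = 0.0123). *SLC7A8*, the leucine carrier LAT2, was also past that fold in all 3, but its levels of 1.29, 316 and 4.13 with DMSO and 11.2, 518 and 12.4 with palbociclib were too low outside RS4;11 for a ratio to be given. The median of the 15 genes of this list tested with palbociclib was 0.08, beside -1.27 for the 9 transporters among the members.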

How the data were processed

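The deposited tables hold, for each of the 6 comparisons, a level per group for every listed gene, which is a signal the authors scaled within the pair of groups after combining its samples. Reads had been cleaned with SOAPnuke by the authors and aligned to hg38 with Bowtie2, followed by RSEM for expression and DESeq2 for the comparison of groups. The versions and the gene annotation are not given in the sources used here. The tables also hold the authors' log2 fold change, p-value and adjusted p, which were not used. The design foresaw values per sample as well, but each column holds 1 value per group, so samples were grouped as labelled and the cell line was the unit of repeat. Depth and the spread between samples are therefore unknown, and the spread of log2 ratios of all genes was 0.111 to 0.412 (SD) at a mean level under 1 and 0.462 to 1.18 at a level of 10 to 100. The deposited levels of low genes may thus carry a ratio that was already shrunk towards 0, which was not tested and could make their ratios and SEs too small.

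Log2 ratios of treated over control were computed without a pseudocount, as no level was 0, and called at 1.5-fold. Over the lines, limma 3.58.1 (R 4.3.3) with a trend and moderated variance was fitted to all genes listed in the 3 comparisons of a treatment (13877 and 13788 genes) or, for the difference of effects, in all 6 (13307), with cell line as a block and Benjamini-Hochberg adjustment over all genes tested. P-values measure the spread between lines and not between replicates. The code was tested on simulated data. Alternatives were folds of 1.25 and 2, an adjusted p of 0.05, pseudocounts of 1 and 10, mean levels of at least 10 and 100, all-gene medians taken out, no trend, and each line left out. Positions and promoter windows are RefSeq's (GRCh38.p14), and 1 gene was matched by its NCBI identifier under an older symbol.

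All members are named. Levels in all 12 groups are given for *ATF4*, for members past 1.5-fold the same way in all 3 lines of a treatment, and for members past it in opposite directions in 2 lines. Genes of other pathway lists are named only where past 1.5-fold in all 3 lines, and 2 genes of the marker and pathway lists are not reported here and stay out of their counts. The members and lists were chosen with earlier results of these data known.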

Additional observations from a re-analysis of the deposited data

Results flagged for a closer look

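*DDIT4* went in opposite directions in 2 lines after the *CCND3* knockdown, each past 1.5-fold, with a log2 ratio of 0.82 in BV-173 and -1.29 in NALM-6. *ASNS* did so with palbociclib, with a log2 ratio of 1.12 in RS4;11 and -2.50 in BV-173. Each value is 1 ratio of 2 group levels, and neither difference between lines was tested.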

How the results depend on the processing

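Each count for palbociclib, the knockdown and the difference of effects was recomputed under the alternatives. Of these, 161 of 184 recomputed counts stayed within 1.5 times the reported one, and counts of 0 that stayed 0 are included in the 161. No called value changed direction, but with 1 line left out 10 uncalled means changed sign. The ranges over the 3 fits were, for the knockdown means, -0.0845 to 0.0661 for *ATF4*, -0.526 to 0.0344 for *DDIT3*, -0.555 to 0.496 for *DDIT4*, -0.417 to 0.0287 for *CEBPB*, -0.347 to 0.0870 for *PSPH*, -0.380 to 0.207 for *ASNS*, -0.256 to 0.178 for *PYCR1* and -0.310 to 0.0221 for *CBS*, and for the difference of effects -0.982 to 0.350 for *DDIT4* and -0.134 to 0.0696 for *ALDH18A1*. At a fold of 2, the members counted as lower after the knockdown were 4 in NALM-6 and 7 in RS4;11, those counted as higher were 0 in RS4;11 and 0 in BV-173, and 13 were lower in all 3 lines with palbociclib. At the looser fold tried, the knockdown counts were 26 lower in NALM-6, 2 higher in RS4;11, and 1 lower and 6 higher in BV-173. The 2 in RS4;11 were *ASNS* and *NUPR1*, the latter at levels of only 0.439 and 0.569. With palbociclib at that fold, 1, 2 and 1 members were higher in the 3 lines. With 1 line left out, the knockdown count of members past 1.5-fold in all remaining lines was 0 to 10 and the limma count of lower members 0 to 21, both highest without BV-173. That limma count was also 0 at an adjusted p under 0.05, 1 with a pseudocount of 1, 0 with a pseudocount of 10, 9 with mean levels of at least 10 or of at least 100, and 0 without the trend. The difference of effects had 2 called members without the trend. The cause was not tested, other than that fewer lines enter when one is left out. Single-member values were scored as the same in 1786 of 1914 recomputations. For a mean over the lines this meant the same sign and call, and for the ratio of 1 line a move of at most the SD between lines. Of the rest, 12 were scored as changed in sign, 79 as no longer called, 32 as newly called and 5 as moved. A change of sign in a line ratio that was not past 1.5-fold was not scored. No paired analysis was possible because the columns hold 1 combined value per group and carry no replicate number. Members near the lowest levels (*NUPR1*, *VLDLR* in BV-173, *CBS* in RS4;11) carry no interpretable ratio. After the knockdown, *CBS* was above control only in RS4;11, at 0.172 with scrambled and 0.186 with *CCND3* shRNA. The change of sign in the *CBS* mean therefore rests on such a ratio.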
